A study of Mus musculus with 25 samples.

Results

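Cyp2j13, Bc1, Etnppl and Wt1 were followed through the sciatic nerve of 2 mouse models of Charcot-Marie-Tooth disease type 1A. They were chosen by the log2 fold change in C3 nerves against their controls (WT-C3), among the largest falls there, so their levels in those 10 libraries are a description and carry no test. The 4 genes are among 56956 genes in the count table. C22 and its controls (WT-C22) were not used for that fold change, and the test of the 4 genes was made there. Earlier results of these data were known when the genes were chosen, so that test is not fully independent of the choice. In short, Cyp2j13, Etnppl and Wt1 were also far lower in C22, a change of Bc1 was not called there, and only the level of Cyp2j13 was higher at all 5 ages, with no overlap, where C3 mice also lacked c-Jun in Schwann cells.

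RNA of whole sciatic nerve was sequenced as 25 libraries, 1 per group from mice aged 3, 5, 7, 9 or 12 weeks. C3 (B6.Cg-Tg(PMP22)C3Fbas/J, on C57BL/6J) carried 5 extra copies of human PMP22, and WT-C3 were C57BL/6J mice. C22 (Tg(PMP22)C22Clh, on FVB/NRJ) carried 10 extra copies, and WT-C22 were FVB/NRJ mice. Both transgenes were carried heterozygously and come from human genomic DNA, C3 being a partial revertant of C22. The group labelled C3-PMP22 c-JunP0Cre, here C3-cJunKO, carried the C3 transgene and lost c-Jun where the Cre named in that label, which acts in Schwann cells, was active. Strain and copy number change together between the models, so that they cannot be told apart. The strain of C3-cJunKO was not given in the sources used here, and a control with the Cre but without the transgene was not analysed here, so that the loss of c-Jun, the Cre and any difference in strain cannot be told apart. Each library is a pool of animals of both sexes. No age was sampled by a second pool, so the 5 ages stand in as replicates (n = 5). The SD and the standard error (SE) therefore include the change with age, and p values measure the spread between these pools.

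As background, the 4 genes have unrelated roles. Cyp2j13 encodes a cytochrome P450 of the 2J family, whose enzymes oxidise arachidonic acid to epoxides that epoxide hydrolases then open. Etnppl encodes ethanolamine-phosphate phospho-lyase, which breaks down phosphoethanolamine, an intermediate in the synthesis of phosphatidylethanolamine, a major phospholipid of myelin. Bc1 is a small non-coding RNA of rodents, made by RNA polymerase III and known from neurons, where it lies in dendrites and axons and holds back translation. Wt1 encodes a zinc-finger transcription factor of the kidney, gonad and mesothelium, whose fingers resemble those of the EGR factors, among them Egr2, a regulator of myelination.

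The genes lie on 4 chromosomes of GRCm39. Cyp2j13 (ENSMUSG00000028571) spans chr4:95915771-95965813 on the minus strand and is overlapped by the pseudogenes Gm53021 and Hspe1-ps6. Etnppl (ENSMUSG00000019232) spans chr3:130411097-130431441 on the plus strand and Wt1 (ENSMUSG00000016458) chr2:104956625-105003961 on the plus strand, each with an antisense non-coding gene over it. Wt1os, the antisense gene at Wt1, was counted 0 to 4 times in any library. Bc1 (ENSMUSG00000115783) is a single exon of 176 bases at chr7:144468199-144468374 on the plus strand, overlapped by the antisense genes Gm71858 and Gm71878. No stretch of 75 bases in the transcripts of Cyp2j13 or Etnppl recurred in transcripts of another gene, against 2.6% of stretches for Wt1, all shared with Wt1os, and 10.8% for Bc1, shared with Akap5 and Lrrc17. The setting of strand in the counting was not stated in the sources used here, so that reads of Bc1, Etnppl and Wt1 and of the genes antisense to them may not have been told apart.

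The sequence of Bc1 is shown because the libraries were made from poly(A)-selected RNA, which an internal run of A can enter. The genome sequence of its exon, read 5′ to 3′, has in capitals the A-rich run of bases 85 to 117, of which 90.9% are A.
Bc1: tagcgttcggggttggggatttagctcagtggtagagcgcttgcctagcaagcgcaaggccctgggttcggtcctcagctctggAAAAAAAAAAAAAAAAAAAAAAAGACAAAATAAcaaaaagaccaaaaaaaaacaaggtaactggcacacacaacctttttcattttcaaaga
The A box consensus of RNA polymerase III promoters matches at bases 22 to 32 of this RNA. Of all 32851 promoter windows searched on both strands, 4.73% held that motif.

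The windows around the starts of Cyp2j13 and Etnppl are shown because both genes were lower in C3 and in C22. They are RefSeq windows from 250 bases before to 50 after the start, given in a table on GRCm38.p6 and placed by exact match on GRCm39 at chr4:95965728-95966027 (minus strand) and chr3:130410847-130411146 (plus strand). Capitals mark GGGCGG, a GC box, as bound by SP1 and, with variations, by the EGR and WT1 zinc fingers.
Cyp2j13: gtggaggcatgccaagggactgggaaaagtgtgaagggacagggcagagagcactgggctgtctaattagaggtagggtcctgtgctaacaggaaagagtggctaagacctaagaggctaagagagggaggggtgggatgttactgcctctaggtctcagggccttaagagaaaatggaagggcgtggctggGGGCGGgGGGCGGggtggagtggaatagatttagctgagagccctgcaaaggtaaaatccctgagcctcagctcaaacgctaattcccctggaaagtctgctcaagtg
Etnppl: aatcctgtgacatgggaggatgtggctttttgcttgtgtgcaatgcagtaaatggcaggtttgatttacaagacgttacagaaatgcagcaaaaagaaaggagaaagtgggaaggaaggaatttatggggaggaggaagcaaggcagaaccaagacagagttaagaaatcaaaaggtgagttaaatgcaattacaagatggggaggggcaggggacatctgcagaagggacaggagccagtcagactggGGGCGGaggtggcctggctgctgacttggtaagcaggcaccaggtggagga
A pair of such boxes stands 1 base apart in the window of Cyp2j13, starting at positions -58 and -51 from the start, and 1 box begins at position -1 in that of Etnppl. A GC box was found in 35.7% of all windows. The AP-1 motif TGANTCA, the letters that JUN binds, and TATAAA were found in neither window, and in 7.81% and 13.6% of all windows. These are matches of letters, not sites. The same table gives a second window for each of these genes, from another start, in which the boxes stand at -51 and -44 for Cyp2j13 and a box at -128 for Etnppl. Windows were matched for 3 of the 4 genes, Wt1 being the other.

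Human PMP22 was read at 10652 to 13894 CPM (counts scaled to the same total on genes in each library) in C3. In C22 it was at 10656 to 14266 CPM, a range that overlapped that of C3. In C3-cJunKO it was at 8213 to 14862 CPM, and in the control libraries at no more than 5.87 CPM. Jun stood at 27.5 to 33.1 CPM in C3-cJunKO and at 93.5 to 125 CPM in C3. The Schwann cell markers Mbp, Prx and Pmp22 were among abundant transcripts of every group, with a median of Mbp of 9232 CPM in C22 and 16498 CPM in WT-C3. Depth on genes differed between groups, with a median of 13416665 counts in WT-C3 (9001002 to 16264172) and 26226737 in C3. It was 20619191 to 31717449 in C3-cJunKO, 20071744 to 27653118 in C22 and 10196601 to 41376508 in WT-C22. The part of depth in the C3 ranking was not tested. C3 itself ran from 2140142 counts in the library of 9 weeks, the shallowest of all, to 49072746. In that shallowest library 3 counts, taken as the limit of detection, equal 1.40 CPM. The C3 library of 9 weeks and the C22 library of 3 weeks also stood apart in short transcripts, as given with Bc1.

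In C3 against WT-C3, all of 13993 genes kept were ranked by fitted log2 fold change. Bc1 was lowest, at -4.23 (SE 1.11), Cyp2j13 was rank 2 at -3.84 (SE 0.35), Etnppl rank 4 at -2.96 (SE 0.97) and Wt1 rank 7 at -2.86 (SE 0.29). Mir6236, Foxi2 and Aldoc stood between them at -3.75, -2.95 and -2.94, and the next gene after Wt1 was Slco4c1 at -2.71. These values chose the genes. On CPM scaled by TMM, the groups did not overlap for Cyp2j13 and Wt1, as for 8.28% of all genes in the downward direction, and they overlapped for Bc1 and Etnppl. The filter on low values asked for a log2 CPM over 1 in 7 or more libraries. Cyp2j13 met it in 15 libraries, Wt1 in 12 and Etnppl in 8, while Bc1 met it in exactly 7, of which 5 were WT-C3. The others were the C3 library of 9 weeks and the C22 library of 3 weeks, at 22.0 and 5.75 CPM. Bc1 was thus kept only with both of these libraries, and its rank in C3 and its test in C22 depend on them. The 8 libraries of Etnppl were 4 of WT-C3, 2 of C3 and 2 of C3-cJunKO, with 0 of WT-C22 and 0 of C22.

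**Figure D1:**
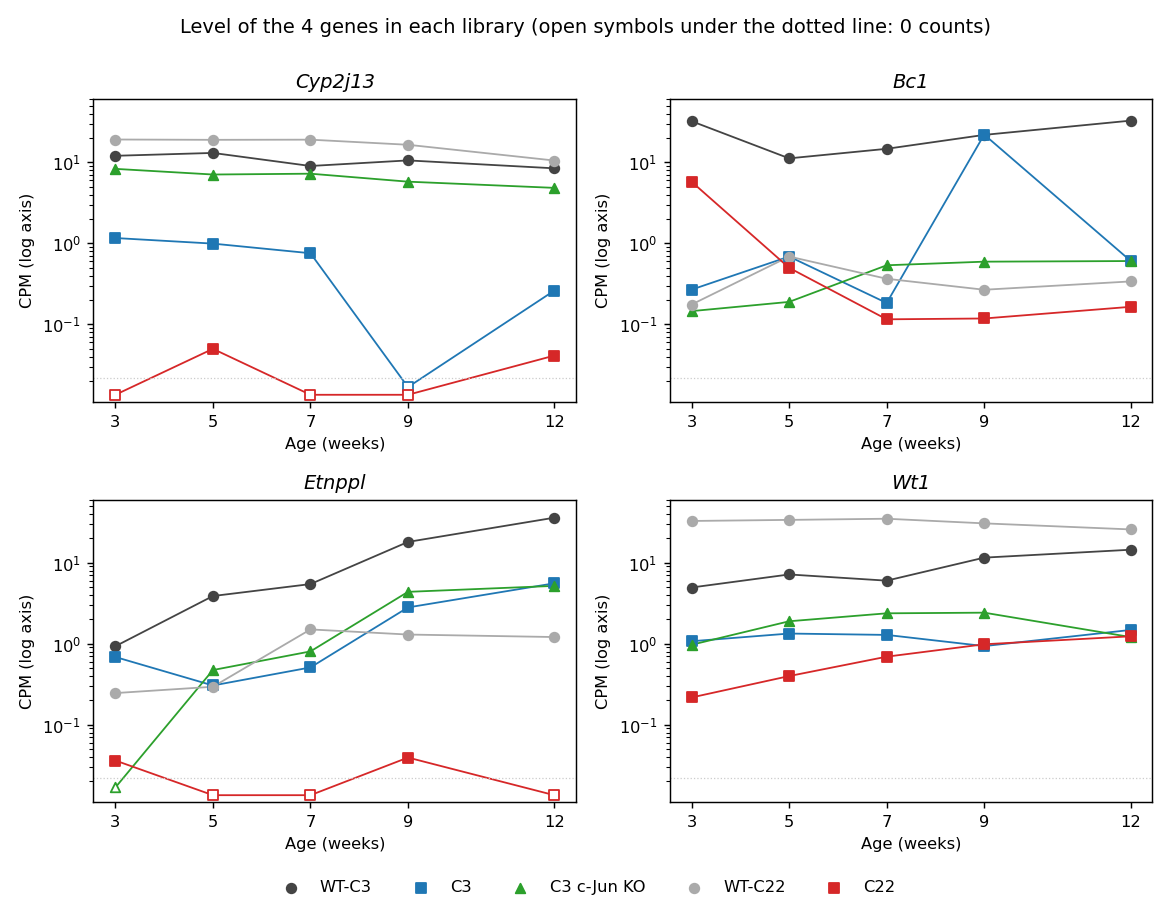
CPM of the 4 genes (log axis) against age in weeks, with 1 point per library, for WT-C3, C3, C3-cJunKO (C3 c-Jun KO in the key), WT-C22 and C22. Open symbols under the dotted line are libraries with 0 counts. At every age Cyp2j13 and Wt1 are lower in C3 and C22 than in their controls, Etnppl climbs with age in WT-C3, C3 and C3-cJunKO, and Bc1 is high in WT-C3 and in 1 library each of C3 and C22.

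Cyp2j13 was the most strongly reduced gene of C22. In WT-C22 it was read at 19.1, 18.9, 19.0, 16.4 and 10.5 CPM from 3 to 12 weeks, a mean of 16.8 ± 3.69 CPM (SD, n = 5). In C22 it had 0, 1, 0, 0 and 1 counts at those ages, all under the limit of 3 counts. Every control library was therefore far above every C22 library, as in 14.5% of genes for that direction. Summed over the ages, 2 counts in C22 against 2072 in WT-C22 came to 0.102% of the control level for equal depth (95% exact interval 0.0124% to 0.370%, covering counting error only). The fitted log2 fold change was -9.78 (SE 0.40, adjusted p = 2.49e-08), the lowest of the 13993 genes. In that comparison 20.5% of genes were called lower and 21.9% higher at an adjusted p under 0.05, or 2869 and 3070 genes. Scaling by library size alone moved the median of all genes from 0.005 to 0.173 and the calls to 1744 lower and 5474 higher, and the log2 fold changes of Cyp2j13, Etnppl and Wt1 there were -9.63, -5.51 and -5.47, all called. Since the tissue was sequenced in bulk, fewer cells of a type and less RNA per cell cannot be told apart here or for any gene that follows.

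In the C3 line and its controls, Cyp2j13 was read at 12.0, 13.0, 9.00, 10.5 and 8.42 CPM in WT-C3 and at 1.16, 0.991, 0.754, 0 and 0.261 CPM in C3. All C3 libraries lay below all WT-C3 libraries, the 0 being that of the shallow library of 9 weeks, where it allows up to 1.40 CPM. In C3-cJunKO the 5 libraries held 8.29, 7.06, 7.23, 5.76 and 4.83 CPM. That is above C3 at all 5 ages with no overlap, and below WT-C3 at all 5 ages. Against C3, the log2 fold change of C3-cJunKO was 3.09 (SE 0.36), an 8.51-fold higher level and rank 7 from the highest of all genes. Groups did not overlap in the upward direction for 1.16% of genes in that comparison. No test is given, since the C3 libraries had helped to choose the gene. Against WT-C3, C3-cJunKO stood at -0.76 (SE 0.19), or 62.0% of WT-C3 in counts summed for equal depth (95% interval 56.1% to 68.7%). On CPM the 2 groups did not overlap, and with TMM scaling the C3-cJunKO library of 3 weeks, at 9.05 CPM, passed the lowest of WT-C3, at 8.37 CPM. The order of the group means was thus WT-C22, WT-C3, C3-cJunKO (6.64 ± 1.35 CPM), C3 (0.634 ± 0.490 CPM) and C22. The ranges of WT-C22 and WT-C3 overlapped, their log2 difference being 0.66 (SE 0.19), and C3 and C22 overlapped only through the C3 library with 0 counts.

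Wt1 had the same order of controls and models. In WT-C22 it was read at 32.7, 33.7, 34.9, 30.6 and 25.7 CPM, and in C22 at 0.217, 0.399, 0.692, 0.984 and 1.23 CPM. The lowest control library was thus more than 20 CPM above the highest C22 library. The log2 fold change was -5.65 (SE 0.30, adjusted p = 1.40e-07), rank 12 from the lowest. Its level in C22, 87 counts in all, was 2.30% of WT-C22 (95% interval 1.84% to 2.85%). In WT-C3 the values were 4.94, 7.16, 6.00, 11.5 and 14.4 CPM, against 1.07, 1.33, 1.28, 0.935 and 1.48 CPM in C3. No C3 library reached the lowest of WT-C3, and the C3 library of 9 weeks rested on 2 counts. C3-cJunKO held 0.970, 1.89, 2.37, 2.42 and 1.21 CPM, lower than C3 at 2 ages and higher at 3, with a log2 fold change against C3 of 0.47 (SE 0.26) and overlapping groups. The controls themselves differed, WT-C22 being higher than WT-C3 by 1.84 on the log2 scale (SE 0.24) with no overlap, and 7.60% of genes stood apart that way. The means fell in the order WT-C22 (31.5 ± 3.60 CPM), WT-C3 (8.82 ± 4.03), C3-cJunKO (1.77 ± 0.661), C3 (1.22 ± 0.216) and C22 (0.705 ± 0.415), and the ranges of C3-cJunKO and C3, and of C3 and C22, overlapped.

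Etnppl was low in both FVB/NRJ groups and lower still in C22. In WT-C22 it was read at 0.246, 0.294, 1.5, 1.30 and 1.21 CPM, resting on 7, 3, 37, 34 and 50 counts. C22 had 1, 0, 0, 1 and 0 counts. Each C22 library was under the limit of detection and below each control library. Over all ages 2 counts against 131 gave 1.62% of the control level (95% interval 0.194% to 5.96%), and the fitted log2 fold change was -5.65 (SE 0.78, adjusted p = 0.000169), rank 11 from the lowest. No library of WT-C22 or C22 met the filter for Etnppl, which was kept through WT-C3, C3 and C3-cJunKO libraries alone.

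In WT-C3, Etnppl was read at 0.931, 3.88, 5.44, 18.0 and 35.9 CPM with rising age. In C3 it was at 0.685, 0.305, 0.509, 2.80 and 5.56 CPM, below WT-C3 at each age. The groups overlapped all the same, because the WT-C3 library of 3 weeks lay below the C3 libraries of 9 and 12 weeks. At 3 weeks C3 stood at 73.6% of WT-C3, and at the other ages at 7.87% to 15.5%. Its fall depends on the oldest libraries, the log2 fold change being -2.1 without the WT-C3 library of 12 weeks and -4.46 without the C3 library of 12 weeks. C3-cJunKO held 0, 0.473, 0.803, 4.37 and 5.17 CPM, close to C3, at a log2 fold change of 0.29 (SE 1.00). That value changed sign, to -0.045 (SE 0.45), with age as a block, the only comparison here in which libraries of the same age resembled each other throughout. By mean level the groups fell in the order WT-C3 (12.8 ± 14.5 CPM), C3-cJunKO (2.16 ± 2.41), C3 (1.97 ± 2.24), WT-C22 (0.909 ± 0.593) and C22 (0.0151 ± 0.0207), with C22 alone not overlapping its neighbour. WT-C22 was below WT-C3 by a log2 of -3.71 (SE 0.82), at all 5 ages.

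The climb of Etnppl with age was tested in groups not used for the C3 ranking. In C3-cJunKO it rose by a log2 of 0.60 per week (SE 0.11, adjusted p = 0.00327), a direction called for 2.41% of 18088 genes. Without the library of 3 weeks, which had 0 counts, the slope was 0.52 and its adjusted p 0.0508. The slopes in WT-C3 and C3, which helped to choose the gene, were 0.54 (SE 0.09) and 0.40 (SE 0.09) per week. In WT-C22 the slope of 0.21 (SE 0.11) did not pass the test (adjusted p = 0.287), which called 3.11% of genes rising.

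For Wt1 the level in C22 went from 0.217 CPM at 3 weeks to 1.23 CPM at 12 weeks, each age above the one before. This slope of 0.25 per week (SE 0.06) narrowly missed the threshold (adjusted p = 0.0540), where 0.326% of genes were called rising. It passed with the log2 CPM filter (adjusted p = 0.0466) and in a fit of C22 and WT-C22 alone (adjusted p = 0.0286). With median-ratio size factors it missed (adjusted p = 0.0529). It also missed without any 1 C22 library, at adjusted p of 0.0597 to 0.822, the highest without the library of 3 weeks. The difference from the slope in WT-C22 was 0.30 (SE 0.07), with an adjusted p of 0.0661 over all libraries and 0.0231 in the fit of the 10 libraries, and such a difference was called for 0.243% of genes. Without any 1 library of C22 or WT-C22 that difference missed the threshold, at adjusted p of 0.0766 to 0.569. The slopes of Wt1 in WT-C3 and C3, which helped to choose the gene, were 0.16 (SE 0.04) and 0.03 (SE 0.05) per week. A rise was thus also seen in WT-C3. Cyp2j13 had negative slopes of -0.10 (SE 0.03) per week in both WT-C22 and C3-cJunKO, which missed the threshold at adjusted p of 0.0720 and 0.0851.

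**Figure D2:**
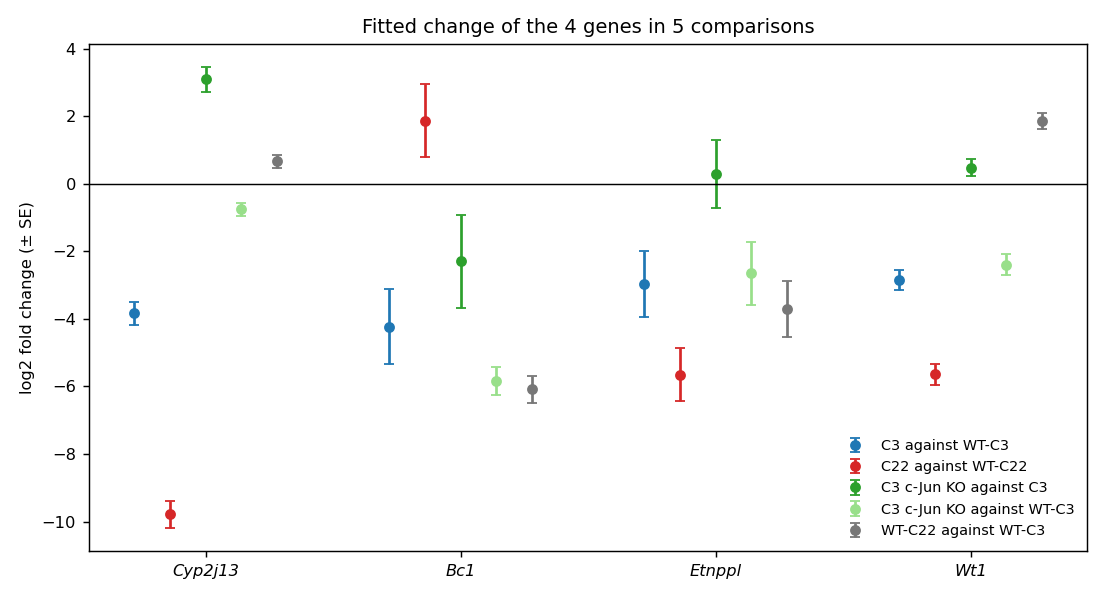
Fitted log2 fold change with SE of the 4 genes in 5 comparisons of 5 against 5 libraries. Cyp2j13 falls to -9.78 in C22 and is 3.09 above C3 where c-Jun is lost, while Bc1 is 1.87 in C22 with an SE of 1.07.

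Bc1 had a pattern of its own. WT-C3 held 32.1, 11.2, 14.7, 21.8 and 32.6 CPM. C3 held 0.268, 0.686, 0.183, 22.0 and 0.608 CPM, the fourth value being 47 counts in the shallow library of 9 weeks. At that age C3 was at 101% of WT-C3 in CPM and just below it after TMM scaling, and at the other 4 ages C3 was at 0.834% to 6.14% of WT-C3. Without that library the log2 fold change went from -4.23 to -5.87.

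Most libraries of the other groups were low in Bc1. C3-cJunKO held 0.145 to 0.604 CPM (median 0.536), at -5.84 (SE 0.41) against WT-C3 with no overlap, as in 8.23% of genes for that direction. Against C3 its log2 fold change was -2.30 (SE 1.39), and 0.0044 without the C3 library of 9 weeks. WT-C22, also wild type, held 0.176, 0.687, 0.365, 0.267 and 0.338 CPM, at -6.08 (SE 0.40) against WT-C3, again with no overlap (9.33% of genes). C22 held 5.75, 0.498, 0.115, 0.118 and 0.164 CPM, of which the first, with 159 counts, was above every WT-C22 library and the other 4 were below WT-C22 at the same age. The log2 fold change of 1.87 in C22 (SE 1.07) did not pass the test (adjusted p = 0.184) and turned to -0.78 (SE 0.53, adjusted p = 0.276) without the library of 3 weeks, so that a direction of Bc1 in C22 was not resolved. The order of means was WT-C3 (22.5 ± 9.82 CPM), C3 (4.74 ± 9.63), C22 (1.33 ± 2.48), C3-cJunKO (0.414 ± 0.227) and WT-C22 (0.366 ± 0.193), and WT-C3 overlapped C3 only through the library of 9 weeks.

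The level of Bc1 moved with that of other short transcripts. In each library the median log2 deviation of 13586 genes with a longest transcript of at least 1000 bases was subtracted from that of 130 genes whose longest transcript is under 600 bases. The difference was highest in the 2 libraries where Bc1 stood apart, 1.21 in C3 at 9 weeks and 0.81 in C22 at 3 weeks. It lay between -0.02 and 0.35 in WT-C3, between -0.61 and -0.05 in the other C3 libraries and between -0.69 and -0.19 in C3-cJunKO. Over the 25 libraries, which share groups and depth, Pearson's r of Bc1 with this measure was 0.64 and Spearman's rho 0.56. The relation was not uniform, since the WT-C22 library of 5 weeks, at 0.35, held 0.687 CPM of Bc1, whereas WT-C3 at 12 weeks, at -0.02, held 32.6 CPM. The same r was -0.29 for Cyp2j13, 0.08 for Etnppl and -0.01 for Wt1. The parts of short transcripts and of depth in the values of Bc1 were not tested.

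**Figure D3:**
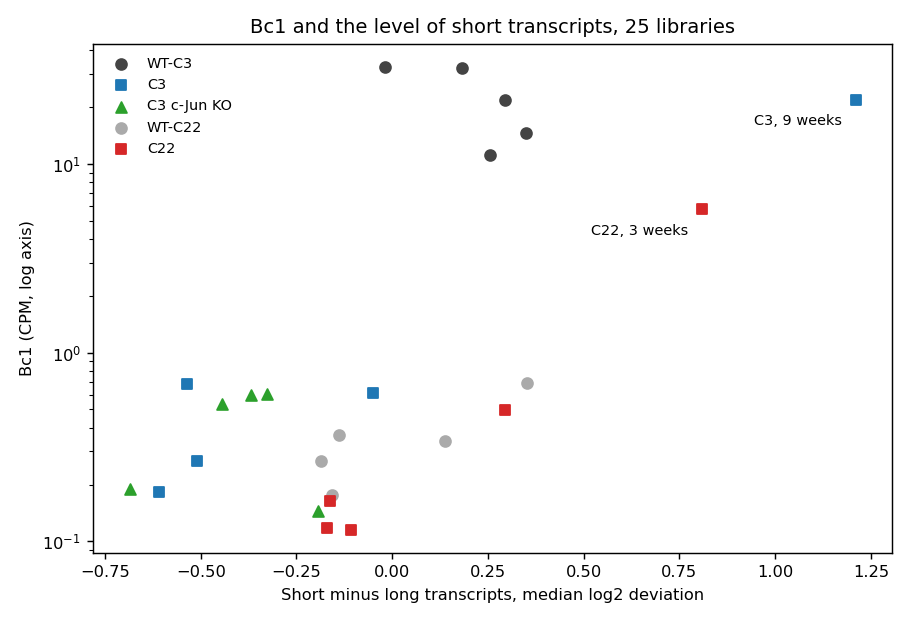
CPM of Bc1 (log axis) against the median log2 deviation of short minus long transcripts, 1 point for each of 25 libraries. The 5 WT-C3 libraries are high in Bc1 at values of -0.02 to 0.35, and the 2 labelled libraries lie farthest right, at 0.81 and 1.21.

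The other genes of the eicosanoid pathway did not share the scale of the fall of Cyp2j13 in C22. Of 24 other epoxygenases and epoxide hydrolases listed, 7 were tested, of which 2 fell, 2 rose and 3 were not called, with a median log2 fold change of -0.26 (all genes 0.005). For this list and those that follow, 20.5% of all genes were called lower in C22 and 21.9% higher. Within the 2J family, only Cyp2j6 and Cyp2j9 were expressed enough to be tested, and both rose, by 0.54 (SE 0.16, adjusted p = 0.0155) and 0.40 (SE 0.09, adjusted p = 0.00285). Cyp2j6 was also the only gene tested of 14 with a start within 500 kb of Cyp2j13. Cyp2c23, an epoxygenase of the kidney, fell by 2.52 (adjusted p = 3.40e-05), and Ephx1, the microsomal epoxide hydrolase, fell by 0.58 (adjusted p = 0.00155). Ephx2, the soluble hydrolase that opens epoxides of arachidonic acid, stood at -0.26 (SE 0.26, adjusted p = 0.440).

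Among 6 tested omega-hydroxylases, 3 fell and 1 rose in C22, where 20.5% of all genes were called lower and 21.9% higher. Cyp4f14, which inactivates leukotriene B4, fell by 2.65 (SE 0.24, adjusted p = 7.40e-06), from a mean of 71.7 to 12.9 CPM, Cyp4v3 fell by 1.28 and Cyp4b1 by 0.60, and Cyp4f16 rose by 0.43. Of 15 tested genes of arachidonic acid release, cyclooxygenases and lipoxygenases, 3 fell, 1 rose and 11 were not called. Alox5, the 5-lipoxygenase, fell by 1.77 (SE 0.09, adjusted p = 7.91e-08), and of the prostaglandin E synthase genes Ptges fell by 0.47, Ptges3 fell by 0.24 and Ptges2 rose by 0.62. In C3 against WT-C3, where 11.4% of all genes were called lower and 12.5% higher, 0, 1 and 1 genes of these 3 lists fell, and 1, 0 and 1 rose by edgeR. At an unadjusted p under 0.05 these counts were 0, 2 and 3 lower and 1, 2 and 2 higher, and by DESeq2 0, 2 and 3 lower and 1, 0 and 1 higher. Alox5 was at -0.01 there (SE 0.21, adjusted p = 0.980).

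Around Etnppl, 19 genes of ethanolamine and phosphatidylethanolamine metabolism were tested in C22, of which 6 fell, 2 rose and 11 were not called (median 0.04). Of all genes, 20.5% were called lower and 21.9% higher in C22, and 11.4% and 12.5% in C3. Faah, the hydrolase of anandamide and other fatty acid amides, fell by 1.67 (SE 0.12, adjusted p = 1.32e-06), and Aldh7a1, an aldehyde dehydrogenase, fell by 0.79 (adjusted p = 4.07e-06). Etnk2, an ethanolamine kinase and so a source of the substrate of Etnppl, rose by 1.28 (adjusted p = 0.000370) at a mean of 0.932 CPM. Etnk1, another ethanolamine kinase and far more abundant, fell by 0.46 (adjusted p = 0.000732), from a mean of 136 to 112 CPM. Gdpd1, a phosphodiesterase of lysophospholipids, rose by 0.69 (adjusted p = 0.00110). Pcyt2, which carries phosphoethanolamine on to phosphatidylethanolamine, fell by 0.68 (adjusted p = 0.00535). Phykpl, the closest relative of Etnppl, which cleaves phosphohydroxylysine, stood at 0.17 (SE 0.10, adjusted p = 0.183). In C3, 3 of the 19 fell and 2 rose, among them Etnk1, at -0.38 (adjusted p = 0.00753), and Aldh7a1, at -0.35 (adjusted p = 0.00228). Lef1, a transcription factor of Wnt signalling, was the only called gene of 3 tested near Etnppl in C22, at -0.47 (adjusted p = 0.0481).

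Beside the counts given here, 20.5% of all genes were called lower and 21.9% higher in C22, and 11.4% and 12.5% in C3. Of 14 proteins known to bind BC1 RNA or to be tied to its repression of translation, none fell in C22 by the edgeR test (1 at an unadjusted p under 0.05, 0 by DESeq2) and 3 rose. They were the helicase gene Eif4a1, by 0.44 (adjusted p = 0.000268), the RNA-binding protein gene Hnrnpa2b1, by 0.31 (adjusted p = 0.0404), and the poly(A)-binding protein gene Pabpc1, by 0.28 (adjusted p = 0.0149). In C3, Fmr1, Srp9 and Srp14 were called lower, at -0.21, -0.40 and -0.42, and none higher by edgeR (1 at an unadjusted p under 0.05, 1 by DESeq2). In each group, 7 of 9 other RNA polymerase III transcripts had 0 counts in all libraries, and Rn7sk alone was tested. It was at 0.51 in C22 (SE 0.73, adjusted p = 0.597), and fell by 1.98 in C3 (SE 0.35, adjusted p = 0.00240). The C3 libraries other than that of 9 weeks were lower in short transcripts than WT-C3, as given with Bc1. The part of this in the level of Rn7sk was not tested.

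Axonal and neuronal transcripts, from the cells in which Bc1 is best known, were lower in C22 for 12 of 13 tested genes, with a median log2 fold change of -1.18. The shares of all genes were 20.5% lower and 21.9% higher in C22, and 11.4% and 12.5% in C3. The neurofilament genes Nefl and Nefm fell by 2.38 (adjusted p = 2.78e-06) and 2.1 (adjusted p = 1.34e-05), Snap25 of the synaptic release machinery by 1.96 and the tubulin-binding Stmn3 by 1.58. Thy1 rose by 0.57. In C3, 5 of the 13 fell and 2 rose. The summed level of the list of 20 was 412 to 475 CPM in C22 and 621 to 801 CPM in WT-C22, and its part in the values of the 4 genes was not tested. Near Bc1, 9 genes were tested in C22. Fgf4, a growth factor gene, fell by 3.19 (adjusted p = 3.56e-07), and Ccnd1, encoding cyclin D1, Tpcn2, Fadd and LTO1 rose, by 1.39, 0.62, 0.34 and 0.24.

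Among 9 tested relatives and cofactors of WT1, 2 fell and 2 rose in C22. These shares are close to those of all genes, of which 20.5% were called lower and 21.9% higher. In C3 the shares of all genes were 11.4% and 12.5%. Egr3 rose by 2.23 (SE 0.26, adjusted p = 4.19e-05) and Egr1 by 0.76 (adjusted p = 0.00572), both immediate early zinc-finger genes. Pawr, a protein that binds WT1, fell by 0.91 and the LIM-domain cofactor gene Fhl2 by 0.68. Egr2 was at 0.24 (SE 0.12, adjusted p = 0.137). Of 10 tested genes reported as WT1 targets, 5 fell, 1 rose and 4 were not called (median -0.28). Aldh1a2, a retinoic acid synthesis enzyme, fell by 1.56 (adjusted p = 0.00396), the receptor gene Igf1r by 0.67, and Spry1 and Podxl by 0.46 each. Only Spry1 of these 10 was called in C3, at -0.43 (adjusted p = 0.0292). Near Wt1, Prrg4 fell by 1.15, Qser1 by 0.39, and Depdc7 rose by 0.81, of 7 tested.

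Markers of several cell types also moved, including cells that could carry Wt1. Of all genes, 20.5% were called lower and 21.9% higher in C22, and 11.4% and 12.5% in C3. Of 12 markers of mesothelium, a well-known adult site of Wt1, 5 were tested and 4 fell in C22, Rspo1 by 2.31, Gpm6a by 1.82, Krt7 by 1.55 and Msln by 1.53, and 4 of the 5 also fell in C3. Their summed level was 89.2 to 161 CPM in C22 against 263 to 379 CPM in WT-C22, and 168 to 254 CPM in C3 against 283 to 521 CPM in WT-C3. A large part of it was Gpm6a, at a mean of 66.3 CPM in C22 and 209 CPM in WT-C22. Msln was at 17.7 and 45.7 CPM. The defining markers Upk3b and Lrrn4 were near 0 in all groups, at no more than 0.243 and 0.905 CPM. All 5 tested perineurial markers fell in C22, Slc2a1 by 0.88, Ntng1 by 0.75, Lypd2 by 0.71, Itgb4 by 0.69 and Cldn1 by 0.62, and 3 of 5 in C3. Of 8 markers of endothelial cells and pericytes, 5 fell in C22 (median -0.52), among them Kdr by 0.77, Cdh5 by 0.68, Kcnj8 by 0.61 and Pdgfrb by 0.53, and 2 fell in C3. Their summed level was 718 to 1127 CPM in C22 and 938 to 1262 CPM in WT-C22. Among CNS glia markers 4 of 5 fell in C22, Mobp by 2.39, Hapln2 by 2.32, Slc1a2 by 1.70 and Gfap by 0.60, while 1 fell and 1 rose in C3. Of 10 Schwann cell markers, 4 fell and 3 rose in C22, and 2 fell and 3 rose in C3. Their summed level was 31683 to 44647 CPM in C22 and 56606 to 113976 CPM in WT-C22. Of 7 epineurial fibroblast markers 2 fell and 0 rose in C22. Of 4 endoneurial fibroblast markers 1 fell and 2 rose there, and of 8 macrophage markers 1 fell and 1 rose. None of 10 adipocyte and 9 skeletal muscle markers was called in C22 or C3 by the edgeR test. At an unadjusted p under 0.05 there were 0 and 1 in C22 and 2 and 1 in C3. DESeq2 called 1 muscle marker in C3 and none of the others, but gave no adjusted p for the 9 muscle markers in C22. The summed level of the muscle list was uneven between libraries, at 62.2 to 2606 CPM in C22 and 21.6 to 8792 CPM in WT-C22. In C3 and WT-C3 it was 161 to 6245 and 24.5 to 3631 CPM. The lack of calls therefore does not show equal muscle content. Of 7 liver and kidney markers none passed the filter, and their summed level was 4.19 to 12.1 CPM in C22 against 0.702 to 3.96 CPM in WT-C22. Most of it was Lrp2, a receptor gene of the kidney tubule, at 5.88 ± 2.34 CPM in C22 (n = 5) and 0 counts in every WT-C22 library. The kidney markers Umod, Slc34a1 and Kap were at 0 in both groups. The part of these cells in the values of Wt1, Etnppl and Cyp2j13 was not tested.

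The pools of C22 and WT-C22 also differed in transcripts tied to sex. Of the Y-linked genes, Eif2s3y rose by 1.13 (SE 0.26, adjusted p = 0.00420), Kdm5d by 0.98 (SE 0.28, adjusted p = 0.0136) and Uty by 0.85 (SE 0.22, adjusted p = 0.00976) in C22, and Ddx3y stood at 0.49 (SE 0.22, adjusted p = 0.0995). Xist, expressed in females, was at -0.53 (SE 0.35, adjusted p = 0.25). Between the controls, Eif2s3y and Ddx3y were called lower in WT-C22 than in WT-C3, at -1.05 and -0.88. In C3 against WT-C3 none of the 5 was called, with adjusted p of 0.391 to 0.899. The part of the mix of sexes in the values of the 4 genes was not tested.

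**Figure D4:**
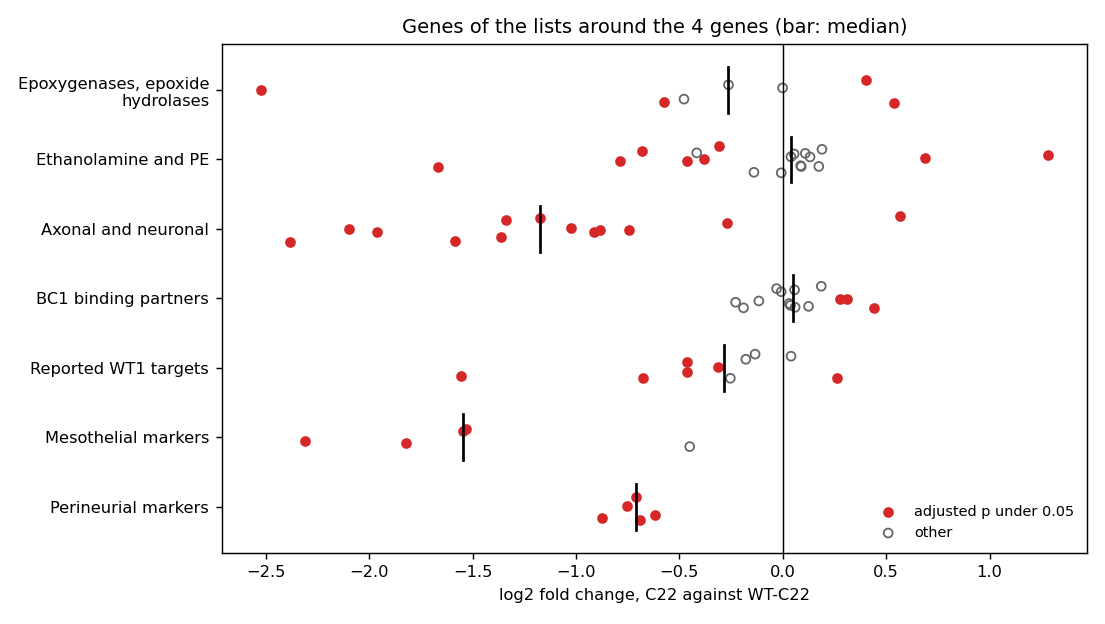
Log2 fold change in C22 against WT-C22 of the tested genes of 7 lists, without Cyp2j13, Bc1, Etnppl and Wt1. Each point is a gene, filled where the adjusted p was under 0.05, and the bar is the median of the list. Medians run from -1.55 for mesothelial markers to 0.05 for BC1 binding partners.

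In the distribution of all genes in C22, 3 of the 4 lay at its lower end. Foxi2, which ranked between Etnppl and Aldoc in C3, was second to Cyp2j13 with a log2 fold change of -8.51. In C22 against WT-C22, 20.5% of all genes were called lower and 21.9% higher. Of the 21 other genes among the 25 strongest falls in C3, 10 were called lower in C22 and none higher by edgeR, with 0 higher at an unadjusted p under 0.05 and 0 by DESeq2. Those called include Aldoc, the brain aldolase, at -4.15 (SE 0.36), Slco4c1 at -5.09 (SE 0.54) and Erc2 at -6.53 (SE 0.44). Like Bc1, the short ribosomal protein genes Rps29 and Rpl38 were not called, at 1.31 (SE 0.67, adjusted p = 0.135) and 0.73 (SE 0.51, adjusted p = 0.271).

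**Figure D5:**
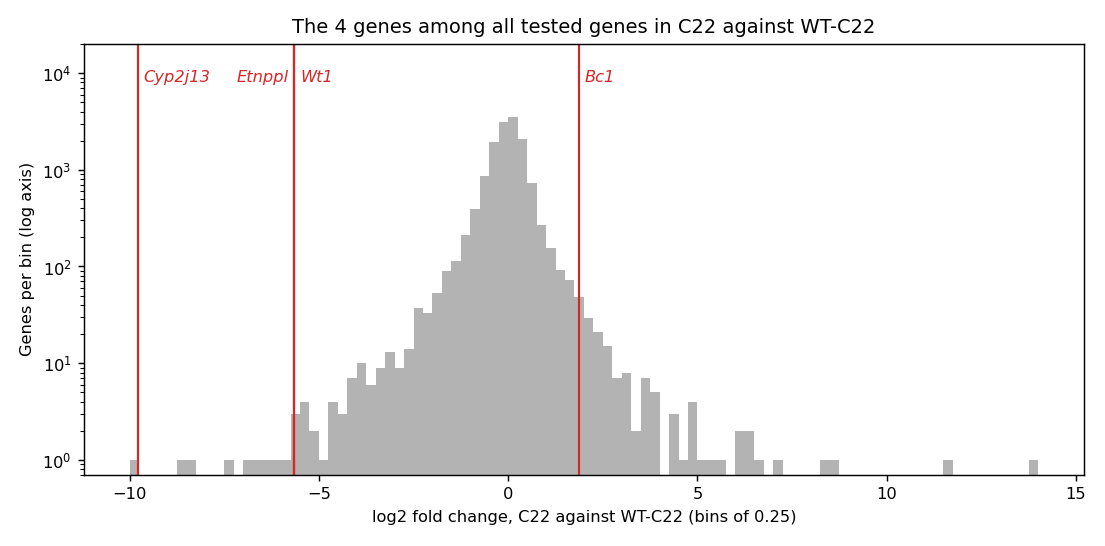
Number of genes (log axis) in bins of 0.25 of the log2 fold change in C22 against WT-C22, for all 13993 genes, with lines at the 4 genes. Cyp2j13 lies at the lower end at -9.78, Etnppl and Wt1 both at -5.65, and Bc1 above most genes at 1.87.

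Across the 25 libraries Cyp2j13 and Wt1 resembled each other most among the 4, with a Pearson's r of log2 CPM of 0.78. In the 15 libraries outside C3 and WT-C3 it was 0.77. Cyp2j13 and Etnppl were at 0.52 and 0.71, and Bc1 and Wt1 at 0.14 and -0.19. All such values share the split of groups and are descriptions. The genes nearest to Cyp2j13 were Arhgap28 (r = 0.93), the dipeptidase gene Cndp1 (0.92), Nab1 (0.92), a corepressor of EGR factors, Dchs2 (0.90) and Pter (0.90), with r of 0.93 to 0.98 in the 15 libraries. Nearest to Wt1 were Smim1, Nsg2, the farnesyltransferase gene Fntb, Zdhhc2 and the sphingomyelin synthase gene Sgms1, at 0.94 to 0.95. For Etnppl they were Kctd2, the ferritin gene Fth1, Klf5, 9530026P05Rik and Foxo4, at 0.90 to 0.92. For Bc1 they were Rps29, Rpl38, Ubl5, Rps27rt and Cops9, at 0.91 to 0.94, and at 0.70 to 0.81 in the 15 libraries.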

How the data were processed

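RNA of 25 sciatic nerve libraries was analysed. The authors trimmed reads with cutadapt 2.10, aligned them with STAR 2.7.5a to GRCm39 with the human PMP22 locus, removed duplicates with UMI-tools 1.1.1, counted with HTSeq 0.12.4 and deposited raw counts per gene. Symbols were matched for 56323 of 56941 mouse genes. CPM scales counts to the total on genes. In R 4.3.3, edgeR 4.0.16 was used with TMM and its quasi-likelihood test, with a term for group alone, on genes with a log2 CPM over 1 in 7 or more libraries, and p values were adjusted by Benjamini-Hochberg over all genes kept. Age slopes came from a fit of all libraries after filterByExpr. Intervals of summed counts are exact. The steps were tested on data simulated with the same dispersion for every gene and no outlying library. That setting is unlike the spread of Bc1 and Etnppl, so it does not bear on their values. The alternatives were median-ratio size factors, scaling by library size, DESeq2 1.42.0, other filters on low counts or none, fits of more or fewer groups, age as a block and each library left out in turn.

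The 4 genes and the lists were chosen with earlier results of these data known. From each list up to 4 called genes with the largest changes in C22 are named, with defining markers, called genes within 500 kb and the 5 genes nearest in pattern. The calls in Schwann cell, fibroblast and macrophage lists are given as counts alone, added after their values were seen. The genes beside the 4 in the C3 ranking are named too. Ephx2, Phykpl, Pcyt2, Etnk1, Thy1, Ddx3y, Xist, Egr2, Rps29, Rpl38 and genes named for C3 alone were added after their values were seen. Libraries of the same age were taken as pairs only where every pair of deviations from the group means correlated above 0.1, which held for C3-cJunKO against C3 (0.416, 0.115, 0.349, 0.243 and 0.605).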

Additional observations from a re-analysis of the deposited data

Results flagged for a closer look

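Bc1 in the C3 library of 9 weeks, at 21.96 CPM, and Bc1 in the C22 library of 3 weeks, at 5.75 CPM, lay far from the other 4 libraries of their groups. The gap to the next library was 0.977 and 0.932 of the range of the group. Of 20 combinations of gene and group examined, these 2 stood out in this way, where the gap was set against Dixon's 95% critical value, which chance passes in about 1 of 20 groups.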

How the results depend on the processing

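The falls of Cyp2j13, Etnppl and Wt1 in C22 kept their direction and call under every alternative run, and leaving out 1 library gave -10.33 to -9.50, -6.11 to -5.38 and -5.94 to -5.40. The number of genes called there was 5939, and 5058 to 6027 without 1 library. Leaving out 1 library gave -0.78 to 2.17 for Bc1 in C22. In C3-cJunKO against C3 it gave -3.03 to 0.0044 for Bc1 and -0.34 to 1.76 for Etnppl, which was -0.045 with age as a replicate block. In C22 against WT-C22, the replicate block changed no call of the 4 genes. Scaling by library size alone gave 7218 calls there, 1744 lower and 5474 higher (75.8% higher, against 51.7% in the fit reported), with a median of all genes of 0.173.

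Of the slopes per week, that of Wt1 in C22 passed the threshold under the stricter log2 CPM filter (0.248) and when C22 and WT-C22 alone were fitted (0.246), as did its difference from WT-C22 in the latter fit (0.295). Both missed it with median-ratio size factors and without any 1 library. Leaving out 1 library gave 0.20 to 0.34 for the Wt1 slope in C22 and 0.25 to 0.39 for the difference. Without 1 library the slopes ran from -0.18 to 0.48 (Cyp2j13) and -0.45 to 0.086 (Etnppl) in C22, -0.11 to 0.073 (Bc1) in WT-C22, and 0.52 to 0.93 (Etnppl) and -0.085 to 0.17 (Wt1) in C3-cJunKO, and the difference between C22 and WT-C22 from -0.081 to 0.58 (Cyp2j13). The cause was not tested. In all, 483 alternative values, the Wt1 fits that missed among them, kept their direction (for counts of calls, a value within 1.5 times) and, where a test was made, their side of the threshold. DESeq2 gave no adjusted p for Bc1 in C22. The C3 library of 9 weeks, with 2140142 counts, limits what its low counts show.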
